A study of Homo sapiens with 6 samples.

Results

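The interferon-stimulated genes and their regulators described here are 54 genes, picked from a list of names: antiviral effectors, nucleic acid sensors, components of the ISG15 system and transcription factors of the interferon response. All 54 were found by symbol in the 62700 genes of the deposited table. RNA was sequenced from SAS cells, a human squamous cell cancer line, in 3 libraries from cells given an siRNA against IGF2BP1 (siIGF2BP1, genotype label IGF2BP1 knockdown) and 3 from cells given a control siRNA (siC, genotype label WT). Both groups were the same cell line and both received an siRNA; the labels give no siRNA sequence, dose or time after transfection, and they number the replicates without saying whether each was its own culture. The p-values therefore rest on the variation among these libraries, part or all of which may be technical. No further siRNA against IGF2BP1 is named, so effects of the siRNA itself and of IGF2BP1 loss cannot be told apart. IGF2BP1 binds mRNAs and protects many of them from decay; the study's stated interest was its effect on YAP1, a transcriptional coactivator that Hippo signalling holds in check.

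Cells switch on interferon-stimulated genes when secreted interferon binds its receptors, which signal through kinases such as JAK1 and TYK2 to transcription factors. A complex that includes STAT2 and IRF9 binds a DNA element called ISRE, whereas interferon gamma acts mainly through an element called GAS. Some of the same genes can also be switched on without secreted interferon, by IRF1 or by IRF3 downstream of sensors of foreign or misplaced nucleic acid.

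The ISRE core was found in 6 of the 7 risen genes with a promoter sequence, HERC6 being the exception. Of those 6, the windows of the 4 with the largest fold changes are printed here; many genes that were not called hold it too, as given further on. They run from 250 bases before to 50 bases after the RefSeq start (GRCh38.p14, plus strand for all 4), at chr10:89392373-89392672 for IFIT1, chr1:1013247-1013546 for ISG15, chr1:78649539-78649838 for IFI44 and chr10:89327747-89328046 for IFIT3. Capitals mark each match to the ISRE core, which is GAAA and GAAA with 2 bases of any kind between them, or TTTC and TTTC on the other strand; overlapping matches run together.
IFIT1: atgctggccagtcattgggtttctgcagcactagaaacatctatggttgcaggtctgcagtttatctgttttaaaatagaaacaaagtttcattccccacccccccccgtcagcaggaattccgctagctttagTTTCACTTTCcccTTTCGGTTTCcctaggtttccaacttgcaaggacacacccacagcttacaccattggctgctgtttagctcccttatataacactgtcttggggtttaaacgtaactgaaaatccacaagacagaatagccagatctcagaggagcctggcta
ISG15: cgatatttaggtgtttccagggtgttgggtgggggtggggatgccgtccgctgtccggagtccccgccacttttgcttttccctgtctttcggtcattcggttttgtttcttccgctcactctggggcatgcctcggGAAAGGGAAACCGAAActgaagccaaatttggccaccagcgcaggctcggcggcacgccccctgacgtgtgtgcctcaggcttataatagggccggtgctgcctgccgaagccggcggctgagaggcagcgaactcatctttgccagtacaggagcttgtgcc
IFI44: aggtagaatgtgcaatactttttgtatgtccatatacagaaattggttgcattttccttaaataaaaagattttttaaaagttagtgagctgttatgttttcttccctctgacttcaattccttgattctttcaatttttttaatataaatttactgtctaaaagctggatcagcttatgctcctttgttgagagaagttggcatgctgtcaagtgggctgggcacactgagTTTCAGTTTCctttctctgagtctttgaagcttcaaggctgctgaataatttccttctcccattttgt
IFIT3: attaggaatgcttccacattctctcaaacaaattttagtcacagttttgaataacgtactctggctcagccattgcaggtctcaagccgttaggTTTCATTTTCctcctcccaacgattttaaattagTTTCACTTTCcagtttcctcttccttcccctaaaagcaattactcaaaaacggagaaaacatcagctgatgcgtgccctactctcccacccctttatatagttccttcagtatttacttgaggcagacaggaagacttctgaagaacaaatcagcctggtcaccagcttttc

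Interferon-stimulated genes moved in both directions after IGF2BP1 knockdown. Of the 45 that could be tested, 8 rose (IFIT1, OASL, HERC6, ISG15, IFI44, IFIT3, ISG20 and IFITM3), 5 fell (PLSCR1, UBE2L6, IRF1, TRIM25 and IFI35) and 32 were not called, at an adjusted p under 0.05 in edgeR's quasi-likelihood test over all genes. Among all 14649 tested genes 6.27% rose and 6.66% fell, beside 17.8% and 11.1% of the tested interferon-stimulated genes. These shares are a description: the genes were chosen with earlier results of these data known, and IFIT1, HERC6 and IFI44 passed the count minimum of the test in all siIGF2BP1 libraries but not in all siC libraries. Their median log2 fold change was 0.06, beside 0.03 for all tested genes. Rises made up 48.5% of all calls, and 63.2% with no scaling factor. Summed over all 54 genes, the level was 2421 to 2743 CPM (reads scaled to library size with TMM factors) in siIGF2BP1 libraries and 2491 to 2714 CPM in siC libraries, which overlap. LGALS3BP (means of 683 CPM in siIGF2BP1 and 807 CPM in siC libraries) and IFITM3 (560 and 436 CPM) weigh most in this sum. Their means differ in opposite directions, so the sum says little about genes at low levels. The count of risen genes was 4 without siC library 1, 5 without siC library 3 and 6 to 7 without any 1 of the others. In bulk RNA, a change in RNA per cell and a change in how many cells make it cannot be told apart.

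**Figure D1:**
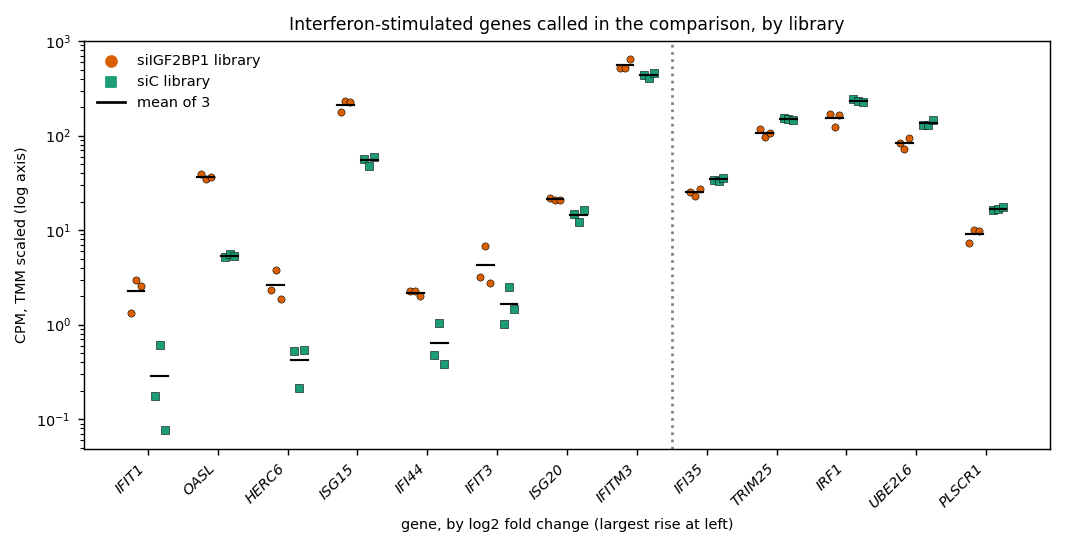
Level of the 13 called interferon-stimulated genes in each library, in CPM on a log axis; circles are siIGF2BP1 libraries, squares are siC libraries and bars are means of 3. Genes left of the dotted line rose and genes right of it fell. The 2 groups of libraries do not overlap for any of the 13 genes, which were picked by their calls in these same libraries. Among all tested genes, groups did not overlap for 30.7% in either direction.

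The targeted gene, IGF2BP1, held 29, 25 and 21 reads in siIGF2BP1 libraries 1 to 3, against 185, 223 and 292 reads in siC libraries 1 to 3 (log2 fold change -3.07, SE 0.30, adjusted p = 4.56e-06). Totals were 17918496 to 25926371 reads in siIGF2BP1 libraries and 23775889 to 26675064 reads in siC libraries, where 3 reads correspond to between 0.115 and 0.165 CPM. The siIGF2BP1 library 1 was the shallowest and stood apart in RNA5.8SN3, a ribosomal RNA gene, at 543 CPM against 21.3 to 50.7 CPM in the other 5 libraries; without it 7 interferon-stimulated genes rose and 6 fell. RN7SL1, another RNA gene without a poly(A) tail, stood at 368, 447 and 60.1 CPM in siIGF2BP1 libraries 1 to 3 and at 33.9, 139 and 18.3 CPM in siC libraries 1 to 3, highest in siIGF2BP1 library 2; without that library 6 interferon-stimulated genes rose and 4 fell. Of 8 squamous epithelial markers all were detected (5456 to 5927 CPM summed in siIGF2BP1 libraries, 9006 to 9911 CPM in siC libraries), and KRT5, KRT14 and CDH1 fell after knockdown. Most of the summed difference lay in KRT5, with means of 477 CPM in siIGF2BP1 libraries and 3584 CPM in siC libraries. KRT17, TP63, SFN, EPCAM and DSG3 were not called (log2 fold changes -0.01, -0.01, -0.04, 0.12 and -0.66). Of 3 markers of plasmacytoid dendritic cells, the main makers of interferon in blood, 2 were at 0 in all libraries and the summed level was at most 0.0875 CPM in siIGF2BP1 libraries and 0.115 CPM in siC libraries. The 7 leukocyte markers summed to 64.8 to 71.8 CPM in siIGF2BP1 libraries and 32.3 to 37.8 CPM in siC libraries, a difference in which LAPTM5 rose (log2 fold change 2.22) while the defining genes PTPRC and CD3E were at 0 in all libraries. The other leukocyte markers were not called or not tested: CD14 was lower in each siIGF2BP1 library (13.1 ± 1.04 CPM) than in each siC library (17.8 ± 0.728 CPM; SD, n = 3 each) with an estimate of -0.44 (adjusted p = 0.0944), and CSF1R had an estimate of 0.51 (adjusted p = 0.151). Fibroblast markers (3 of 6 at 0) summed to 5.72 to 9.18 CPM in siIGF2BP1 libraries and 6.29 to 8.50 CPM in siC libraries, with PDGFRB higher (log2 fold change 1.52, adjusted p = 0.0491) and COL1A1 and COL1A2 not called (-0.29 and -0.86). Endothelial markers (1 of 4 at 0) summed to 6.17 to 13.5 CPM in siIGF2BP1 libraries and 6.29 to 7.41 CPM in siC libraries. The part of the squamous, leukocyte and fibroblast marker shifts in the results was not tested.

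The IFIT family includes proteins that bind foreign RNA and block its translation, and all 4 genes lie in 1 cluster on chromosome 10. IFIT1, which recognises caps without the methyl marks of host mRNA, had 24, 68 and 67 reads in siIGF2BP1 libraries 1 to 3 and 4, 14 and 2 reads in siC libraries 1 to 3. Every siIGF2BP1 library was above every siC library, at 2.29 ± 0.863 CPM against 0.285 ± 0.280 CPM (SD, n = 3 each), and IFIT1 rose by 3.01 on the log2 scale (SE 0.62, adjusted p = 0.00367). That log2 fold change was 4.15 without siC library 2 and 2.55 without siC library 3. IFIT3, a partner that stabilises IFIT1, had 58, 157 and 72 reads in siIGF2BP1 libraries and 23, 58 and 38 reads in siC libraries. Scaled to depth, its 2 groups did not overlap (2.76 CPM in the lowest siIGF2BP1 library, 2.50 CPM in the highest siC library), and IFIT3 rose by 1.37 (SE 0.41, adjusted p = 0.0386). Without siIGF2BP1 library 2, its highest, the log2 fold change was 0.82 (adjusted p = 0.24), and the call was also lost without siC library 1 (0.158) or siC library 3 (0.135) and by limma-voom (0.0538). IFIT2 and IFIT5 were not called, with estimates of 0.93 (95% interval -0.14 to 2.01) and 0.71 (-0.50 to 1.91). The siIGF2BP1 library 2 was the highest of the 6 for all 4 genes. IFIT1 starts 64652 bases from IFIT3 and 22040 bases from IFIT5 on the same strand.

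The oligoadenylate synthetases OAS1, OAS2 and OAS3 make the messenger that activates RNase L on sensing double-stranded RNA, whereas the related OASL lacks that activity and binds the sensor RIG-I through ubiquitin-like domains. OASL stood at 38.8, 35.1 and 36.1 CPM in siIGF2BP1 libraries 1 to 3 and at 5.17, 5.60 and 5.37 CPM in siC libraries 1 to 3. These are tight, widely separated groups, and OASL rose by 2.77 (SE 0.16, adjusted p = 1.33e-08), a 6.81-fold difference. OAS3, the most abundant of the family per kilobase in siC libraries (7.53 CPM per kilobase, against 0.851 for OASL and 0.742 for OAS1), was not called at 146 ± 22.7 CPM against 136 ± 5.37 CPM in siC libraries (SD, n = 3 each; log2 fold change 0.10, 95% interval -0.15 to 0.35). For OAS1 the estimate was -0.37 (adjusted p = 0.366). OAS2 had too few reads for a test, with 19, 16 and 8 reads in siIGF2BP1 libraries and 7, 1 and 5 reads in siC libraries. OASL lies on chromosome 12 (121019111 to 121039242, minus strand), apart from the adjacent OAS1, OAS3 and OAS2 (112906777 to 113011723, plus strand).

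Genes of the ISG15 system moved in opposite directions. ISG15 is a ubiquitin-like protein that is attached to other proteins by the conjugating enzyme UBE2L6 and the ligase HERC5 and removed by USP18. ISG15 stood at 176, 231 and 225 CPM in siIGF2BP1 libraries 1 to 3 and at 56.7, 48.1 and 59.3 CPM in siC libraries 1 to 3. The groups were far apart, and ISG15 rose by 1.95 (SE 0.13, adjusted p = 5.31e-08), a 3.85-fold difference. UBE2L6 went the other way: it stood at 84.4, 71.4 and 94.9 CPM in siIGF2BP1 libraries and at 129, 129 and 145 CPM in siC libraries. Its groups did not overlap either, and UBE2L6 fell by 0.69 on the log2 scale (SE 0.12, adjusted p = 9.51e-04). TRIM25, a ligase that modifies RIG-I and can also use ISG15, stood at 117, 96.6 and 107 CPM in siIGF2BP1 libraries and at 154, 150 and 145 CPM in siC libraries. All 3 siIGF2BP1 libraries were lower, and TRIM25 fell by 0.48 (SE 0.11, adjusted p = 0.00588). HERC6, a paralog of HERC5 that acts as the ISG15 ligase in mouse, had 42, 86 and 49 reads in siIGF2BP1 libraries and 12, 5 and 14 reads in siC libraries. Its groups did not overlap, and HERC6 rose by 2.62 (SE 0.48, adjusted p = 0.00166). HERC5 itself was barely detected, with 2, 8 and 7 reads in siIGF2BP1 libraries and 5, 0 and 0 reads in siC libraries, and was not tested. USP18 was not called (log2 fold change -0.41, 95% interval -0.99 to 0.17), and 23.4% of its 50-base windows occur in another gene, USP41 first, so its value is uncertain. As a description of the split, the ratio of ISG15 to UBE2L6, both in CPM per kilobase, was 4.97, 7.70 and 5.63 in siIGF2BP1 libraries 1 to 3 and 1.04, 0.886 and 0.971 in siC libraries 1 to 3.

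**Figure D2:**
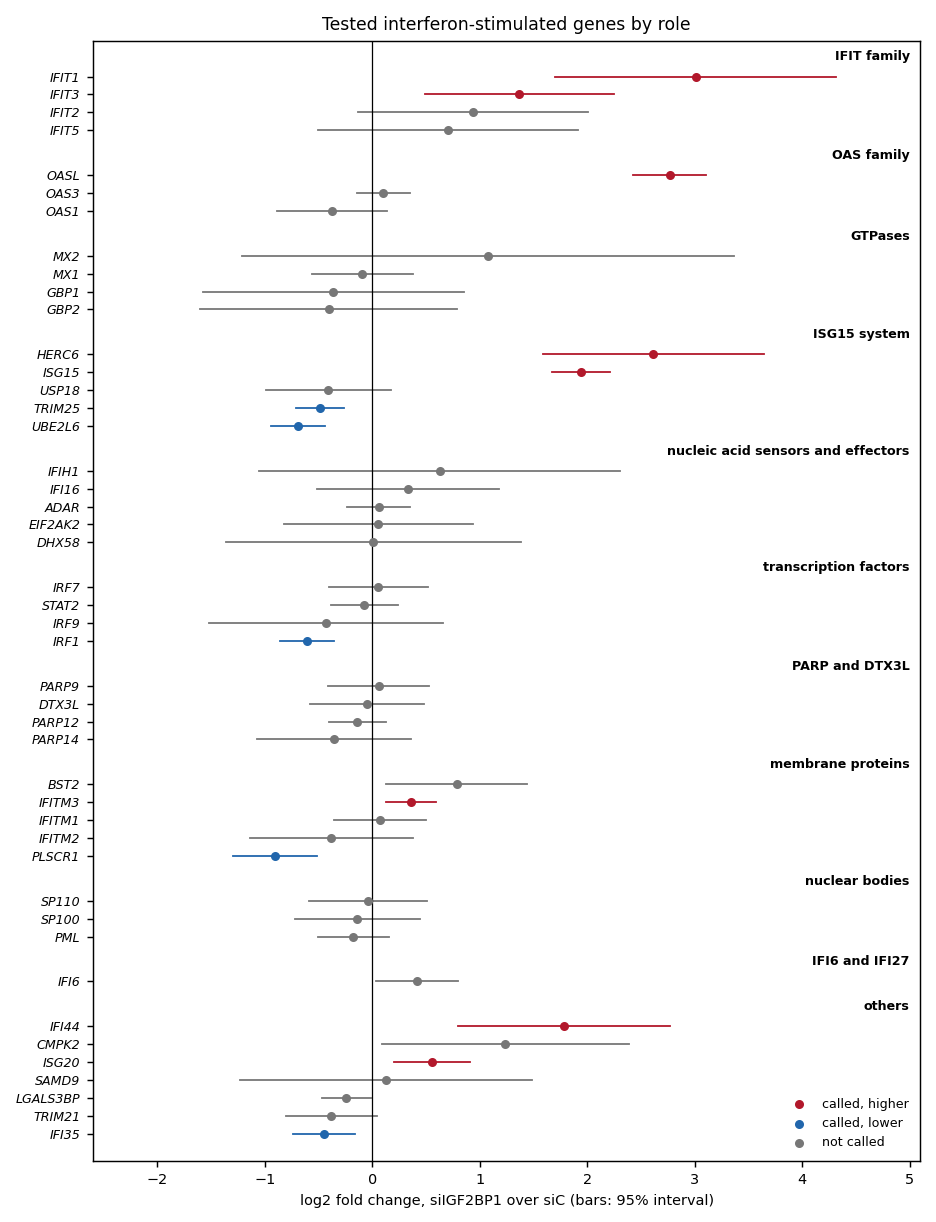
Log2 fold change (siIGF2BP1 over siC) of the 45 tested interferon-stimulated genes, grouped by role, with 95% intervals from the quasi-likelihood fit. Red genes were called higher, blue genes lower and grey genes were not called; rises and falls occur within the same role groups, as for ISG15 and UBE2L6.

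None of the 4 transcription factors of the response was called higher, and 1 fell. IRF1, which switches on interferon-stimulated genes directly and is itself induced through GAS elements, stood at 171, 124 and 166 CPM in siIGF2BP1 libraries 1 to 3 and at 243, 232 and 228 CPM in siC libraries 1 to 3. The groups were separate, and IRF1 fell by 0.61 (SE 0.12, adjusted p = 0.0026); genes on the opposite strand share 22.003% of its exon bases, so reads from either strand may be mixed if counting ignored strand. STAT2 stood at 39.5, 27.7 and 34.7 CPM in siIGF2BP1 libraries and at 38.9, 34.5 and 33.6 CPM in siC libraries, which overlap (log2 fold change -0.07, 95% interval -0.39 to 0.24, adjusted p = 0.816). IRF7, which amplifies interferon production, stood at 11.9, 10.9 and 8.71 CPM in siIGF2BP1 libraries and at 12.8, 9.13 and 8.33 CPM in siC libraries. It too overlapped (0.06, -0.41 to 0.52, adjusted p = 0.907). IRF9, the DNA-binding partner of STAT2, had 31, 37 and 16 reads in siIGF2BP1 libraries and 37, 67 and 20 reads in siC libraries (-0.43, -1.52 to 0.66, adjusted p = 0.663), and a gene on the same strand shares 48.4% of its exon bases. The sign of STAT2 turned with no scaling factor, and those of all 3 uncalled factors turned without single libraries.

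None of the 5 tested sensors and effectors of nucleic acid recognition was called. ADAR, which edits adenosines in double-stranded RNA and so hides it from sensors, stood at 150, 149 and 113 CPM in siIGF2BP1 libraries 1 to 3 and at 110, 131 and 155 CPM in siC libraries 1 to 3. The groups overlap (log2 fold change 0.06, 95% interval -0.23 to 0.35). EIF2AK2, the kinase PKR that halts translation on binding double-stranded RNA, had 75, 248 and 98 reads in siIGF2BP1 libraries and 113, 98 and 230 reads in siC libraries. Here siIGF2BP1 library 2 and siC library 3 were both high, and the estimate was 0.06 with a wide interval (-0.82 to 0.94). IFIH1, which encodes the sensor MDA5, had 8, 27 and 3 reads in siIGF2BP1 libraries and 6, 9 and 12 reads in siC libraries, at which depth only a large difference was detectable (0.63, -1.05 to 2.31). DHX58 had a log2 fold change of 0.01 and IFI16, a DNA sensor, one of 0.33. TLR3, the endosomal receptor for double-stranded RNA, had 0, 1 and 0 reads in siIGF2BP1 libraries and 0, 0 and 10 reads in siC libraries, and DDX60 had 7, 5 and 9 reads in siIGF2BP1 libraries and 0, 4 and 0 reads in siC libraries; neither was tested.

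Among proteins at membranes is IFITM3, which blocks entry of viruses from endosomes. Per kilobase of deposited length it ranked second of the 54 genes in siC libraries, at 153 CPM against 236 CPM for LGALS3BP. That length was 2844 bases for IFITM3, whose annotated exons cover 1348 bases. For LGALS3BP it was 3422 bases against 3584 exon bases, so the order of these genes depends on the length used. IFITM3 stood at 514, 522 and 643 CPM in siIGF2BP1 libraries 1 to 3 and at 441, 404 and 463 CPM in siC libraries 1 to 3. The groups did not overlap and IFITM3 rose by 0.36 (SE 0.11, adjusted p = 0.0415), a call lost with RLE scaling (adjusted p = 0.0587) and without siIGF2BP1 library 3 (0.243) or any 1 siC library (0.0752 to 0.196). Its neighbours and near copies were not called: IFITM1 stood at 9.07, 9.41 and 8.71 CPM in siIGF2BP1 libraries and at 8.33, 7.88 and 9.59 CPM in siC libraries (log2 fold change 0.07, 95% interval -0.35 to 0.50). IFITM2 stood at 1.54, 1.84 and 1.92 CPM in siIGF2BP1 libraries and at 1.84, 2.07 and 2.99 CPM in siC libraries (-0.38, -1.14 to 0.38). Between 32.0% and 35.2% of the 50-base windows of these 3 genes occur in another gene, so their reads could be assigned elsewhere. Part of this is annotated overlap: IFITM1 and IFITM2 overlap each other on the same strand, over 32.5% and 22.7% of their exon bases. In IFITM3, 21.3% of exon bases lie opposite AC136475.5, so its count may mix both strands if counting ignored strand. PLSCR1, a phospholipid scramblase with antiviral activity, stood at 7.31, 9.98 and 9.75 CPM in siIGF2BP1 libraries and at 16.4, 16.6 and 17.8 CPM in siC libraries. The groups were far apart, and PLSCR1 fell by 46.6%, the largest fall of the 5 (log2 fold change -0.91, SE 0.19, adjusted p = 0.00369). BST2, the tether that holds budding virions, was higher in each siIGF2BP1 library (4.03 to 8.10 CPM) than in each siC library (2.72 to 3.64 CPM) but was not called (0.78, adjusted p = 0.113); siIGF2BP1 library 3 held its highest value.

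Of the remaining genes, IFI44 and the RNA exonuclease gene ISG20 rose and IFI35 fell. IFI44 had 41, 52 and 53 reads in siIGF2BP1 libraries 1 to 3 and 11, 24 and 10 reads in siC libraries 1 to 3, which are separate groups. It rose by 1.79 (SE 0.46, adjusted p = 0.0167), not called without siC library 1 (0.0676) or siC library 3 (0.0743), and its neighbour IFI44L, 3650 bases away on chromosome 1, had 0 reads in all 6 libraries. ISG20 stood at 21.7, 21.0 and 20.9 CPM in siIGF2BP1 libraries and at 14.7, 12.1 and 16.4 CPM in siC libraries. It rose by 0.56 (SE 0.17, adjusted p = 0.0365), a call that held without siC library 3 and was lost without each of the other 5 libraries (adjusted p from 0.0762 to 0.184). IFI35, a binding partner of NMI, stood at 25.5, 22.8 and 27.5 CPM in siIGF2BP1 libraries and at 34.0, 33.5 and 36.0 CPM in siC libraries. It fell by 0.45 (SE 0.14, adjusted p = 0.0385), lost without each library (0.0522 to 0.100) and with no scaling factor (0.0682). CMPK2, a mitochondrial nucleotide kinase, had 28, 26 and 23 reads in siIGF2BP1 libraries and 10, 11 and 15 reads in siC libraries, which do not overlap, but was not called (1.24, 95% interval 0.09 to 2.39, adjusted p = 0.158). RSAD2, the antiviral enzyme viperin encoded beside CMPK2, had 2, 3 and 0 reads in siIGF2BP1 libraries and 0 in all siC libraries, at or under the floor of 3 reads per library in both groups.

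A further 4 groups held no call: the interferon-induced GTPases (MX1, MX2, GBP1 and GBP2), the PARP genes with DTX3L, the nuclear body genes (PML, SP100 and SP110) and IFI6. Their log2 fold changes ran from -0.40 for GBP2 to 1.08 for MX2, which had 10, 14 and 1 reads in siIGF2BP1 libraries and 10, 0 and 3 reads in siC libraries. MX1, a GTPase that traps viral ribonucleoproteins and a standard reporter of interferon exposure, was at 6.43 ± 0.377 CPM in siIGF2BP1 libraries and 6.85 ± 0.553 CPM in siC libraries (SD, n = 3 each; log2 fold change -0.09, 95% interval -0.56 to 0.38). PARP12, the most abundant PARP gene per kilobase here, had a log2 fold change of -0.14. The ubiquitin ligase gene DTX3L had -0.05 and its partner PARP9, whose start lies 339 bases away on the opposite strand, 0.06. IFI6 was higher in each siIGF2BP1 library (18.8 ± 1.03 CPM) than in each siC library (14.1 ± 2.73 CPM; SD, n = 3 each) and was not called (0.42, adjusted p = 0.151). PML, the scaffold of nuclear bodies, had -0.18 (-0.50 to 0.15), and -0.39 without siIGF2BP1 library 1 (adjusted p = 0.0386). LGALS3BP, a secreted glycoprotein, had -0.24 (-0.47 to -0.01, adjusted p = 0.171), and -0.33 without the same library (adjusted p = 0.0296). The remaining tested genes, SAMD9 and TRIM21, had 0.13 and -0.38. IFI27, one of the genes most induced by interferon in epithelia, had 1, 2 and 3 reads in siIGF2BP1 libraries and 3, 1 and 4 reads in siC libraries. XAF1 and SAMD9L had 0 reads in all 6 libraries, like IFI44L.

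The risen genes came from across the range of levels, the fallen ones from the upper part. Among all tested genes, too, falls were more frequent at higher levels. In bands of mean CPM over the 6 libraries, 4 of 19 tested interferon-stimulated genes under 5 CPM rose and 0 fell, beside 3.48% and 1.27% of all tested genes. From 5 to 50 CPM, 2 of 16 rose and 2 fell (7.97% and 7.99% of all tested genes), and above that 2 of 10 rose and 3 fell (9.42% and 15.6%). The 4 low ones were IFIT1, HERC6, IFI44 and IFIT3; of these, IFIT1, HERC6 and IFI44, with IFIT5 and SAMD9 among the uncalled, passed the count minimum only in the siIGF2BP1 group as a whole. Such genes entered the test through that group, so the counts by band are a description. Groups did not overlap for 11 tested interferon-stimulated genes with siIGF2BP1 higher and 5 with siIGF2BP1 lower, beside 15.5% and 15.1% of all tested genes. Among the 9 untested genes, 3 had no read and 6 had too few (OAS2, HERC5, DDX60, TLR3, IFI27 and RSAD2).

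**Figure D3:**
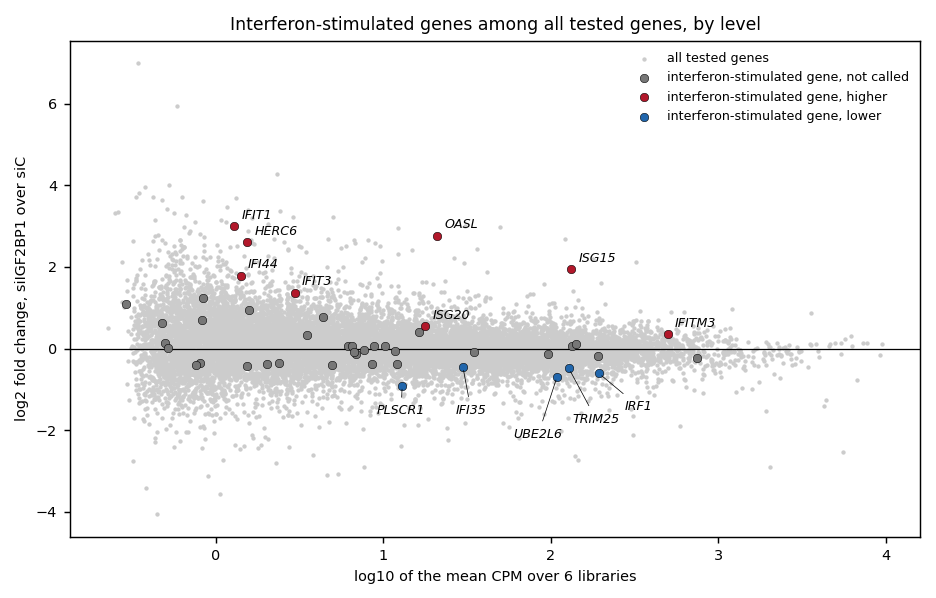
Log2 fold change (siIGF2BP1 over siC) against the log10 of the mean CPM over 6 libraries, for all 14649 tested genes (light grey) and the 45 tested interferon-stimulated genes (large points). OASL (2.77) and ISG15 (1.95) combine a large rise with a level well above the low end, while the 5 fallen genes lie between -0.91 and -0.45.

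Promoter sequences were in the RefSeq table for 44 of the 54 genes; OASL, IFIT2, OAS2, MX2, GBP2, USP18, DHX58, IRF7, IFITM2 and PML had no entry. The ISRE core (either strand) was present in 27 of the 44 windows (61.4%), against 3.65% of all 27305 windows and 2.63% of those of tested genes. Because the genes were picked by name as interferon-stimulated, this share describes the list and is not a result of the knockdown. It was in 6 of 7 risen genes (IFIT1, ISG15, IFI44, IFIT3, ISG20 and IFITM3), 1 of 5 fallen genes (PLSCR1), 15 of 24 genes not called and 5 of 8 not tested. In the printed IFIT1 window the matches lie at -116 to -107 and -103 to -94, counted from the start as 0, and in ISG15 they overlap, at -113 to -104 and -107 to -98. IFIT3 has matches at -156 to -147 and -122 to -113, and IFI44 has 1, at -18 to -9. The GAS core TTCNNNGAA, which reads the same on both strands, was in 0 of 7 risen genes and 3 of 5 fallen genes (IRF1, PLSCR1 and IFI35), 5 of 24 not called and 3 of 8 not tested. That is 11 of 44 (25.0%), against 7.88% of all windows and 6.05% of those of tested genes; in IRF1 it lies at -124 to -116. In genes with both cores the matches can overlap, as in BST2. A match is a run of letters and not a bound site, and these counts rest on few genes. Among the risen genes, IFIT1, HERC6 and IFI44 passed the count minimum in all siIGF2BP1 libraries but not in all siC libraries. The split of motifs by call is therefore a description, and a link between motif and change was not tested.

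The ligands and signalling genes upstream of the response, 40 genes outside the 54, held 1 rise and 3 falls among 20 tested, or 5% and 15%, beside 6.27% and 6.66% of all tested genes. Of 14 interferon genes, 11 had 0 reads in all 6 libraries; IFNB1 had 2, 0 and 2 reads in siIGF2BP1 libraries and 1, 0 and 0 reads in siC libraries, IFNL1 had 1, 5 and 0 reads in siIGF2BP1 libraries and 0 in all siC libraries, and IFNE had 0, 8 and 1 reads in siIGF2BP1 libraries and 0, 3 and 7 reads in siC libraries. None of these 14 had more than 8 reads in any library, so a difference was not detectable at this depth; other interferon genes were not analysed here. Of the 50-base windows of IFNA1, 60.7% occur in another gene, as do 25.6% for IFNA21, 32.0% for IFNL2 and 31.4% for IFNL3, so their zeros are uncertain. Receptor genes were not called: on the log2 scale IFNAR1 had an estimate of 0.16, IFNAR2 of -0.71, IFNGR2 of -0.35, IFNLR1 of -0.30 and IFNGR1 of -0.81 (adjusted p = 0.0808), and IL10RB was not tested. Other genes share 77.5% of the 50-base windows of IFNAR2, so its value is uncertain. IFNGR1 was lower in each siIGF2BP1 library (2.23 to 3.06 CPM) than in each siC library (3.96 to 4.69 CPM), and DESeq2 called it (adjusted p = 0.0499). The groups of IFNLR1 were separate too, at 18.6 to 25.8 CPM in siIGF2BP1 libraries and 26.6 to 30.5 CPM in siC libraries. Those of the other receptors overlapped.

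STING1, the adaptor that passes the signal of the DNA sensor cGAS to interferon genes, was the upstream gene that rose. It stood at 85.4, 72.6 and 79.0 CPM in siIGF2BP1 libraries 1 to 3 and at 40.1, 41.6 and 44.0 CPM in siC libraries 1 to 3. The groups were far apart (log2 fold change 0.91, SE 0.12, adjusted p = 6.17e-05). MYD88, the adaptor of Toll-like and interleukin 1 receptors, fell by 56.4% (SE 0.17 on the log2 scale, adjusted p = 2.17e-04), with 13.5, 9.36 and 13.5 CPM in siIGF2BP1 libraries and 29.4, 26.4 and 27.5 CPM in siC libraries. IKBKE, a kinase that activates IRF3 and IRF7, stood at 84.4, 67.2 and 74.1 CPM in siIGF2BP1 libraries and at 112, 112 and 98.9 CPM in siC libraries. Its groups did not overlap, and IKBKE fell by 0.52 (SE 0.12, adjusted p = 0.00669). With 56.6, 41.9 and 51.5 CPM in siIGF2BP1 libraries and 64.9, 64.7 and 73.8 CPM in siC libraries, the transcription factor gene IRF5 fell by 0.44 (SE 0.13, adjusted p = 0.0332). The call of IRF5 was lost with no scaling factor (0.0603) and without siIGF2BP1 library 2 (0.0746), siIGF2BP1 library 3 (0.073) or siC library 3 (0.0956). The sensor gene CGAS (-0.08), the adaptor genes MAVS (0.13) and TICAM1 (-0.11), IRF3 (-0.09) and TYK2 (-0.13) were not called, and RIGI, with 7, 0 and 8 reads in siIGF2BP1 libraries and 0, 5 and 0 reads in siC libraries, was not tested. In IRF3, 19.3% of exon bases lie opposite BCL2L12, so its count may mix both strands if counting ignored strand. SOCS3, a feedback inhibitor, was higher in all 3 siIGF2BP1 libraries and not called (0.28, adjusted p = 0.0807).

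**Figure D4:**
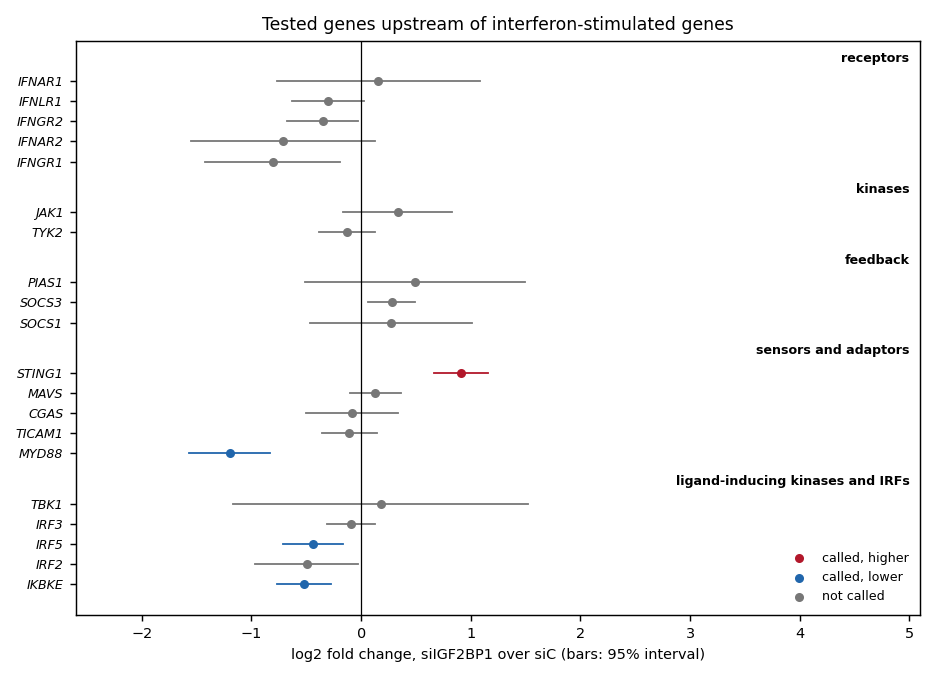
Log2 fold change (siIGF2BP1 over siC) with 95% intervals for the 20 tested genes upstream of interferon-stimulated genes, by role. STING1 (red) was called higher and MYD88, IRF5 and IKBKE (blue) lower; the receptors were not called (grey).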

How the data were processed

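The authors deposited raw read counts per gene for 6 libraries, with a gene length in bases as another column that the authors made; the poly(A)-selected, strand-marked libraries are described in the labels' protocols. Per the submitters' processing notes, the tools were featureCounts 2.0.0, HISAT2 2.1.0, cutadapt 2.8 and SAMtools 1.10, and the build was hg38. The annotation, the strand setting and the treatment of reads with several matches were not stated. Columns were matched to samples by library name.

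Genes were filtered with filterByExpr (minimum count 10, minimum total 15) which left 14649 genes. The test was the quasi-likelihood one of edgeR 4.0.16 under R 4.3.3 (TMM, robust dispersions, glmQLFit and glmQLFTest, 2 groups, no covariate, two-sided, Benjamini-Hochberg adjustment over all tested genes, called under 0.05). SE is the log2 fold change divided by the square root of the quasi-F statistic. The floor of 3 reads covers counting error only, and the 95% intervals of fold changes come from the fit. Replicates differed by more than sampling noise (chi-square per degree of freedom 14.6 to 36.2). The fit was tested on simulated data. As alternatives, each library was left out in turn, the test was replaced by DESeq2 1.42.0 or limma-voom (limma 3.58.1), TMM by RLE or by library size alone, and the count filter was dropped or raised to 5 CPM in 3 libraries. Replicate number was added as a block in another.

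Coordinates and exon overlaps come from GENCODE 29 on GRCh38, the assembly called hg38; shared windows of 50 bases were counted on its transcripts, both strands. Promoters come from RefSeq. The members, role groups and upstream list were chosen with earlier results of these data known. Values in every library are given for called members and a listed set of regulators, sensors and IFITM genes, with fold changes for the 2 most abundant members per role group; values of other genes were added after they were seen. Some genes of the upstream and marker lists are not reported here.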

Additional observations from a re-analysis of the deposited data

How the results depend on the processing

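Of the 13 called members, 8 were called in the same direction wherever an alternative tested them (OASL, ISG15, HERC6, IFIT1, UBE2L6, TRIM25, IRF1 and PLSCR1), and 5 dropped out somewhere. The count of risen members was 4 with the stricter filter, which tests 26 members and leaves out the low ones, and 4 to 7 without a library. The count of risen genes over all genes was 918, and 529 to 828 without a library (587 without siIGF2BP1 library 3, 585 without siC library 1 and 529 without siC library 2). Without a scaling factor the median of all genes shifted by 0.085 and rises became 63.2% of calls, against 48.5% as reported. Risen upstream genes numbered 2 in place of 1 with no scaling factor, the stricter filter and the replicate block, SOCS3 being the other.

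Whether the replicate numbers pair the libraries is not known. Deviations from the group means correlated at 0.179, 0.0863 and -0.073 for numbers 1 to 3. The siIGF2BP1 library 1 correlated best with the siC library of its own number. By contrast, siIGF2BP1 libraries 2 and 3 correlated best with siC libraries of another number. With 3 libraries per group these values cannot settle the pairing, so the block is given only as an alternative. With it the counts were 1158 higher and 1273 lower genes, 8 members higher and 5 lower, and no member's call changed.

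Signs were compared across settings for 24 genes that were not called. They were the tested ones among the listed regulators, sensors and IFITM genes, the 2 most abundant members per role group and the receptors. Of these 24 genes, 12 changed sign in some setting, and the cause was not tested. For the other uncalled genes signs were not compared. With no scaling factor STAT2 was 0.0092, DTX3L 0.042 and SP110 0.045. With the replicate block EIF2AK2 was -0.047, SP110 1.71e-05 and IFNAR1 -0.035. With limma-voom EIF2AK2 was -0.058, SP110 0.011 and IFNAR1 -0.065. Without a library the log2 fold changes ran from -0.20 to 0.024 for STAT2, -0.80 to 0.11 for IRF9, -0.082 to 0.23 for IRF7, -0.50 to 1.13 for IFIH1 and -0.64 to 0.45 for EIF2AK2. They ran from -0.086 to 0.18 for ADAR, -0.032 to 0.19 for OAS3, -0.73 to 0.11 for GBP1, -0.017 to 0.74 for IFI16 and -0.43 to 0.16 for DTX3L. They ran from -0.27 to 0.27 for SP110 and -0.69 to 0.47 for IFNAR1. Tested members averaging under 1 CPM had 95% intervals wider than 2 log2 units, so depth limits what can be said of them.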
